A study of Mus musculus with 8 samples.

Results

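The genes described here belong to fibroblast growth factor (FGF) signalling through the kinase ERK and to the feedback loop that this signal switches on. The members are 41 genes chosen by a list of names, with earlier results of these data known. They comprise 7 ligands, 4 receptors, 11 adaptors and kinases, 11 feedback inhibitors and 8 transcriptional targets. Of these, 37 have a probe set annotated with that single gene symbol, as do 18193 genes in the whole series, and each gene was read by its brightest such probe set, the one with the highest mean over the 8 arrays. Frs2, Hras and Mapk3 have no such probe set here, and Etv1 has only probe sets that it shares with another gene, so these 4 were not analysed here.

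RNA was measured on Affymetrix arrays in mouse embryonic stem (ES) cells of the strain labelled Oct4-Gip at passage 25, as 4 samples given esiRNA against Ctr9 and 4 given esiRNA against luciferase, all taken on day 4. An esiRNA is a mixture of short double-stranded RNAs cut from a longer one, here brought in by lipofection, and luciferase is a firefly gene that mouse cells lack. Ctr9 is a subunit of the Paf1 complex, which accompanies RNA polymerase II. Both groups went through transfection, the labels do not give the share of cells that took up the esiRNA, and nothing says whether samples of a group were separate cultures, so p-values measure a spread that may be technical. The comparison asks which transcripts differ once Ctr9 is targeted.

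An FGF binds a receptor tyrosine kinase together with heparan sulphate, docking proteins recruit the exchange factor that loads RAS, and RAS starts the chain of RAF, MEK and ERK kinases. ERK then induces transcription of early response genes and of its own inhibitors, among them Sprouty and Spred proteins and ERK phosphatases. In mouse ES cells the autocrine ligand is mainly Fgf4, and ERK activity prepares the cells to leave the naive pluripotent state.

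Pearson's r between arrays ranged from 0.997 to 0.998 inside a group and from 0.992 to 0.994 across groups. The luciferase esiRNA arrays split into the pair 1 and 2 and the pair 3 and 4 along principal component 2, which carried 8.93% of the variance. For members, and for other pathway genes named by smallest adjusted p, each call lost or gained without either pair is therefore given with and without it. The targeted gene did not pass on its brightest probe set, where Ctr9 averaged 10.11 in Ctr9 esiRNA arrays and 10.20 in luciferase esiRNA arrays (log2 difference -0.09, SE 0.047, p = 0.0857 by an exact permutation test, two-sided, whose floor with 4 against 4 arrays is 0.0286). Of 5 Ctr9 probe sets, 2 were lower and 1 dim probe set was higher, so the groups below are those that the labels name. Pou5f1 (13.26 in Ctr9 esiRNA arrays, 13.46 in luciferase esiRNA arrays) and Nanog (12.84 and 13.27, in the same order) were among the bright signals, and of 8 ES cell markers 4 were lower and 4 did not pass. Of 10 trophectoderm markers 8 were higher, with a mean log2 signal over the list of 7.65 to 7.69 in Ctr9 esiRNA arrays and 6.48 to 6.65 in luciferase esiRNA arrays. Of 9 primitive endoderm markers 2 were higher (list means over 8 markers with all values 5.74 to 5.95 in Ctr9 esiRNA arrays, against 5.48 to 5.57). These were Foxa2 (1.98) and Dab2 (1.26), named after their values were seen, while 5 of the 9 differences were below 0 and the list's median was -0.05. Of 12 fibroblast markers 4 were higher and 1 lower (5.35 to 5.39 in Ctr9 esiRNA arrays, against 5.12 to 5.24, over 11 markers with all values). The list mean leaves out the lower marker, Fn1 (-0.48), which has an empty value. Over all 18193 genes, 15.8% were higher and 15.0% lower (30.8% in all). Called in either direction were 41.7% of the fibroblast markers and 22.2% of the primitive endoderm markers. The marker lists are short, and their shares were neither matched for signal level nor tested against that of all genes. The part of the listed markers' cell types in the results below was not tested. In bulk RNA, fewer cells of a type and less RNA per cell cannot be told apart.

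The promoters of the feedback inhibitors that were higher are shown first. Of 11 such inhibitors 7 were higher, where 15.8% of all 18193 genes were. For 29 of the 41 members a window of 300 bases (GRCm38.p6) was at hand, 250 before and 50 after the transcription start. Members without a window here, among them Fgf8, Fgf17, Spry4, Dusp4, Etv4 and Phlda1, were not searched. Both strands were searched for the core bound by ETS factors (CGGAAG), the AP-1 site (TGANTCA), the cyclic AMP response element (CRE, TGACGTCA), the EGR site (GCGNGGGCG) and the CArG box of serum response factor. Capitals mark the matches, no match overlapped another in the windows printed, and positions count from the start, with the base before it as -1.

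Dusp6 (chr10:99262981-99263280, plus strand; ETS core at -62): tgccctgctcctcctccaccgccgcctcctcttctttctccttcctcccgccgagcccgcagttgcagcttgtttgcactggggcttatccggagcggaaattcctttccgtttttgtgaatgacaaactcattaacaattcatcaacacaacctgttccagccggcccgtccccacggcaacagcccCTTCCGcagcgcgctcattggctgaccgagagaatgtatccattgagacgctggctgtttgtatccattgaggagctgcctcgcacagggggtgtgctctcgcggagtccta
Spred1 (chr2:117120821-117121120, plus strand; ETS cores at -17 and 8): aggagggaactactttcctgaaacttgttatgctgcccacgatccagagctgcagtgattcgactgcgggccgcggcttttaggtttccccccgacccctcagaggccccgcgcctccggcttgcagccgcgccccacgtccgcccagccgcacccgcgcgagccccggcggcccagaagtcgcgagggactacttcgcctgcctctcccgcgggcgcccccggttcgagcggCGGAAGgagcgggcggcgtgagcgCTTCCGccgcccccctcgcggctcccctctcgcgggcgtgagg
Dusp14 (chr11:84068308-84068607, minus strand; ETS core at -28): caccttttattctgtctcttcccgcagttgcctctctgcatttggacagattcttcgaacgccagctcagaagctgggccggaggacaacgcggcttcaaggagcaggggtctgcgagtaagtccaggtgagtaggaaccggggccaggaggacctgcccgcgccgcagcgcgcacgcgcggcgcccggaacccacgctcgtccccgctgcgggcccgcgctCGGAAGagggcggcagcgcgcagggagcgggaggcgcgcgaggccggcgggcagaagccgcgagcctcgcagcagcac
Dusp5 (chr19:53528895-53529194, plus strand; CArG boxes at -82 and -72): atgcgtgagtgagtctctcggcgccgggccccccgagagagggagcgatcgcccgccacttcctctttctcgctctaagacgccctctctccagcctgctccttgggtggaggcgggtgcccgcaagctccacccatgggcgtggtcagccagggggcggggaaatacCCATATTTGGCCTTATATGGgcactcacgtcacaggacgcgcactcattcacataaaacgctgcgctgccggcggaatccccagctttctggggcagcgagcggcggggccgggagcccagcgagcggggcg
Dusp1 (chr17:26508423-26508722, minus strand; CRE at -143): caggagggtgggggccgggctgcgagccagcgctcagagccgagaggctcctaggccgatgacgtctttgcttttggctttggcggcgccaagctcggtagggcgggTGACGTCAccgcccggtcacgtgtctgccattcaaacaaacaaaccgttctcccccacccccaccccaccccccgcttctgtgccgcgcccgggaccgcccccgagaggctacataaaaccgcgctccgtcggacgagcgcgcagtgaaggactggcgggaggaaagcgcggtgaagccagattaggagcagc

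These 5 windows are those of the higher feedback inhibitors that hold a match. The windows of Spry1 and Il17rd, also higher, hold none of the motifs, and the window of Spred2, which did not pass, holds an ETS core at -43. Over the 29 members with a window, 7 (24.1%) hold an ETS core, against 16.9% of all 32851 windows of the table. The units differ: member shares count genes with a match in any of their windows, and some members have more than a single window. This can raise the member shares here and below. A CRE stands in 3 members (10.3%, against 1.79% of all windows), an EGR site in 3 (10.3%, against 5.55%), a CArG box in Dusp5 alone (3.45%, against 1.63%) and an AP-1 site in 0 members, against 7.81% of all windows. Braf, which was higher, holds CREs at -99 and -81, and Ptpn11, also higher, holds an ETS core, a CRE and 3 EGR matches at -38, -32 and -26, of which neighbours overlap. A match describes letters in the window and is not evidence of binding.

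Of the 37 measured members, 17 were higher and 4 lower with Ctr9 esiRNA and 16 did not pass (limma, Benjamini-Hochberg adjusted p under 0.05 over all probe sets). Over all 18193 genes read in the same way, 15.8% were higher and 15.0% lower (30.8% in all). These shares were not matched for signal level: 3 of the 37 members lay below the median signal, against 6369 of the 18193 genes. How much of the gap goes with signal level was not tested. Since the members were chosen with earlier results of these data known, their shares are no independent test against all genes. The median log2 difference was 0.19 over the members and 0.00 over all genes. In 24 members the values of the groups did not overlap, 19 higher and 5 lower, where 36.6% of all genes had groups that did not overlap (18.8% higher, 17.8% lower). Most of the higher genes were ligands (3 of 7), receptors (3 of 4) and feedback inhibitors (7 of 11), while the lower genes were the ligands Fgf1 and Fgf4, the docking protein Gab1 and the ETS factor Etv4. With either luciferase pair left out, 15 members were higher and 3 lower.

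**Figure D1:**
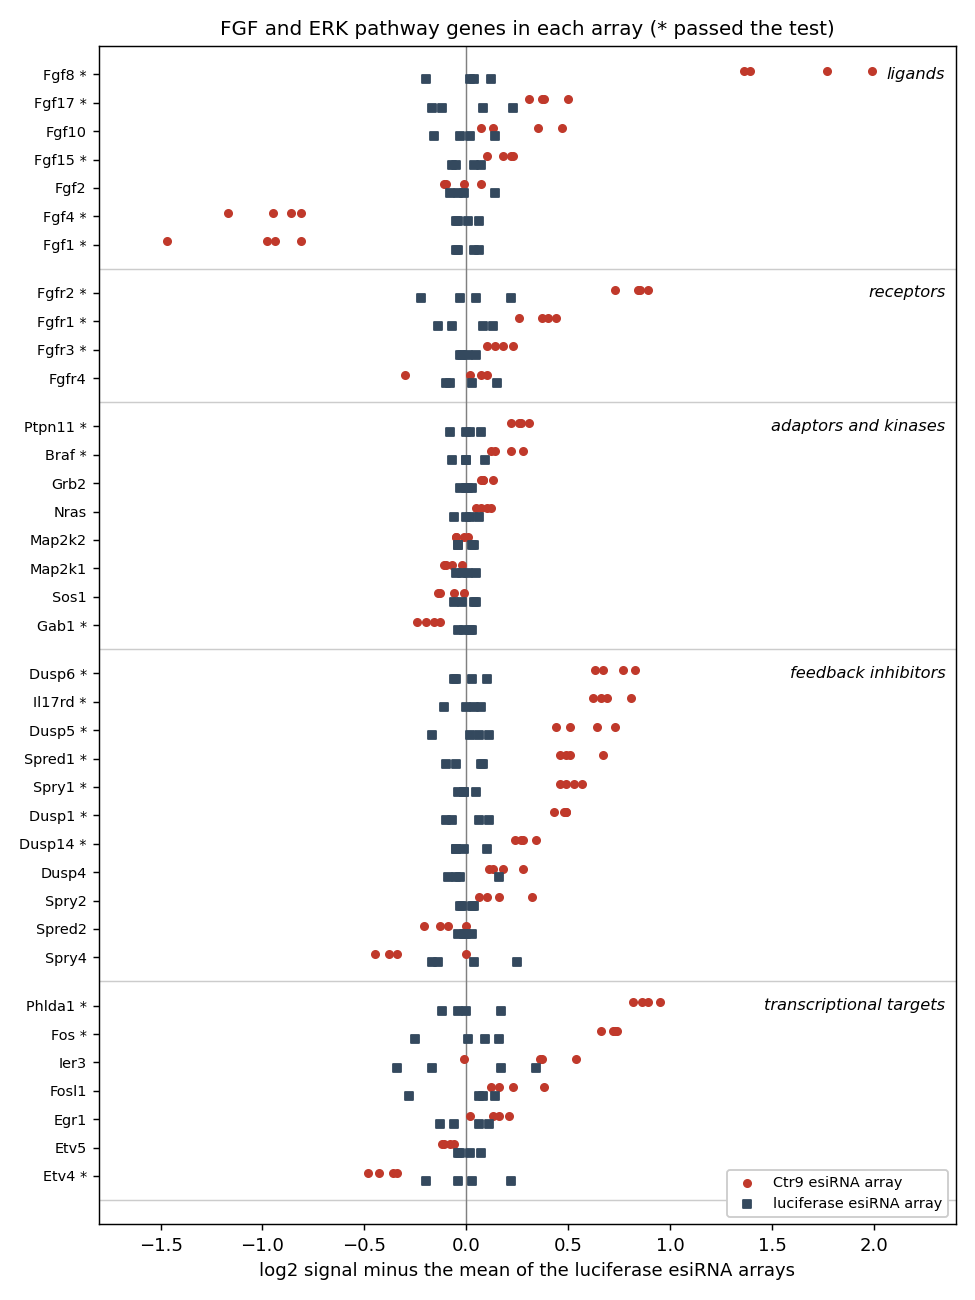
Log2 signal of each of the 37 measured members in every array, on the x axis, as the difference from the mean of the luciferase esiRNA arrays, with genes grouped by role down the page (circles Ctr9 esiRNA, squares luciferase esiRNA, 4 arrays each, an asterisk for a passed test). Fgf8 lies farthest to the right and Fgf1 and Fgf4 farthest to the left, while most adaptors and kinases stay near 0.

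Among the ligands, Fgf8 was higher and Fgf4 and Fgf1 were lower. Fgf8 is the FGF of the primitive streak and of several organisers of the embryo. It read 7.36, 6.73, 6.76 and 7.14 on the log2 scale in the Ctr9 esiRNA arrays, against 5.17, 5.41, 5.49 and 5.39 in the luciferase esiRNA arrays. The groups lay far apart, although every luciferase value was below the median of all array values (5.75), where RMA signals are compressed. The log2 difference was 1.63 (SE 0.136, 3.1-fold, limma adjusted p = 1.67e-05). Fgf17, a close relative of Fgf8 in sequence, averaged 8.29 ± 0.0809 in Ctr9 esiRNA arrays and 7.90 ± 0.185 in luciferase esiRNA arrays (SD, n = 4 each), a rise of 0.39 (SE 0.088, limma adjusted p = 0.00884). Its dimmer probe set rose by 0.60 (SE 0.106). Leaving out luciferase arrays 1 and 2 brought the Fgf17 difference to 0.23 (limma adjusted p = 0.0649).

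Fgf4, the ERK-activating ligand that ES cells make themselves, read 10.27, 10.58, 10.63 and 10.49 in Ctr9 esiRNA arrays, against 11.39, 11.40, 11.50 and 11.45 in luciferase esiRNA arrays. All values with Ctr9 esiRNA were below all those with luciferase esiRNA. The log2 difference was -0.94 (SE 0.075, limma adjusted p = 1.22e-05), and 2 further Fgf4 probe sets fell by 0.91 (SE 0.054) and 0.90 (SE 0.064). The dimmest, at 3.93 with Ctr9 esiRNA and 4.16 with luciferase esiRNA, did not pass (-0.23, SE 0.093). Fgf1, the acidic FGF that binds all FGF receptors, read 6.67, 6.54, 6.50 and 6.01 in Ctr9 esiRNA arrays, against 7.44, 7.43, 7.52 and 7.54 in luciferase esiRNA arrays. Ctr9 esiRNA replicate 4 was the lowest of these, and the groups did not overlap. The difference was -1.05 (SE 0.121, limma adjusted p = 0.000138) and the next probe set of Fgf1 fell by 1.0 (SE 0.102). The dimmest Fgf1 probe set did not pass (-0.22, SE 0.078, limma adjusted p = 0.0636), and the mean over all 3 fell by 0.76.

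Fgf15, the mouse counterpart of human FGF19, differed by less. It averaged 7.61 ± 0.0576 in Ctr9 esiRNA arrays and 7.43 ± 0.0662 in luciferase esiRNA arrays (SD, n = 4 each), a rise of 0.19 (SE 0.052, limma adjusted p = 0.0253). That call was lost without Ctr9 esiRNA replicate 1 (0.0523), 2 (0.0691) or 4 (0.0682), without luciferase replicate 3 (0.0688) or 4 (0.0650), and with luciferase arrays 3 and 4 both left out (0.13, limma adjusted p = 0.185). Fgf10, a ligand of mesenchyme that acts on epithelium, was at 5.11 in Ctr9 esiRNA arrays and 4.85 in luciferase esiRNA arrays and did not pass (0.26, 95% interval 0.05 to 0.47, limma adjusted p = 0.0740), but passed without Ctr9 esiRNA replicate 4 (0.32, limma adjusted p = 0.0372). Fgf2, the basic FGF, read 3.09 and 3.13, in the same order of groups, a level low on these arrays.

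Fgf4 and Fgf15 are neighbours on mouse chromosome 7, where the protein-coding genes in RefSeq run Fgf3, Fgf4, Fgf15, LTO1 and Ccnd1. Along this order, which was looked up after the values were seen, the log2 differences were -0.04, -0.94, 0.19, -0.07 and 0.49, of which Fgf4 fell and Fgf15 and Ccnd1 (limma adjusted p = 6.01e-05), a cyclin gene that ERK induces, rose. Fgf3 and LTO1 did not pass.

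**Figure D2:**
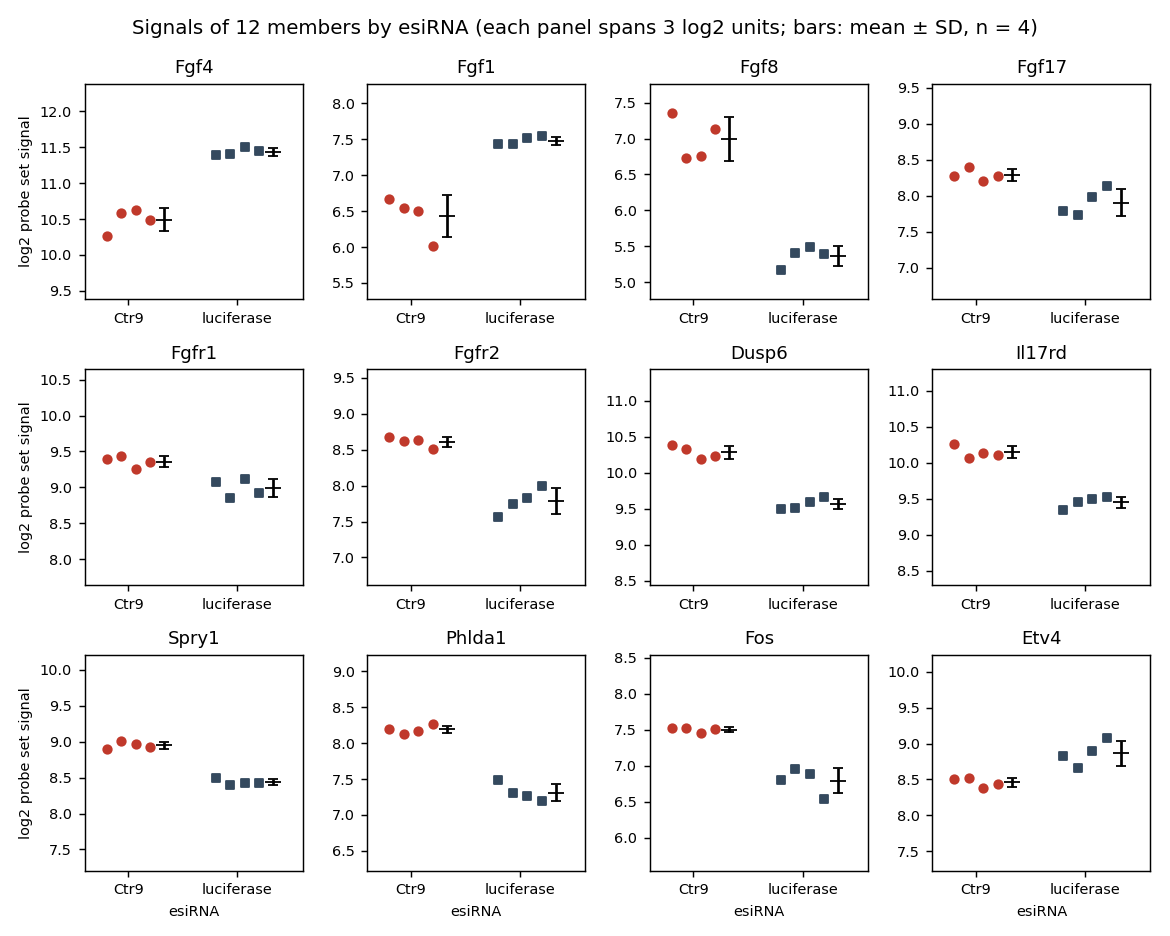
Log2 probe set signal (y axis) of 12 members in the 4 Ctr9 esiRNA arrays (circles, left, replicates 1 to 4 from left to right) and the 4 luciferase esiRNA arrays (squares, right), with mean ± SD. Each panel spans 3 log2 units around its own centre, so sizes of differences compare across panels while levels do not; the groups do not overlap in any of them.

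The receptors Fgfr1, Fgfr2 and Fgfr3 were higher. Fgfr2, a receptor that extraembryonic lineages use, read 8.67, 8.62, 8.63 and 8.51 in Ctr9 esiRNA arrays, against 7.56, 7.75, 7.83 and 8.0 in luciferase esiRNA arrays. Every Ctr9 esiRNA value exceeded the highest luciferase value. The log2 difference was 0.83 (SE 0.085, 1.77-fold, limma adjusted p = 6.64e-05), and a second Fgfr2 probe set rose by 0.85 (SE 0.079). The dim last one (4.28 with Ctr9 esiRNA, 4.35 with luciferase esiRNA) did not pass.

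Fgfr1, the receptor that ES cells chiefly use, read 9.39, 9.43, 9.25 and 9.36 in Ctr9 esiRNA arrays, against 9.07, 8.85, 9.12 and 8.92 in luciferase esiRNA arrays. These groups lay closer together but did not overlap. All 3 Fgfr1 probe sets rose, by 0.37 (SE 0.069), 0.30 (SE 0.091) and 0.21 (SE 0.067). For Fgfr3 the values were 6.28, 6.24, 6.32 and 6.37 with Ctr9 esiRNA, against 6.15, 6.12, 6.19 and 6.11 with luciferase esiRNA. The rise of 0.16 (SE 0.048, limma adjusted p = 0.0320) did not pass without Ctr9 esiRNA replicate 1 (0.0510), 3 (0.0738) or 4 (0.0927) or luciferase replicate 1 (0.0608), 2 (0.0731) or 4 (0.0736), nor with luciferase arrays 1 and 2 (0.137) or 3 and 4 (0.0906) left out. It was also lost with the replicate block (0.0751), with a trended robust prior (0.0861) and with the mean of both Fgfr3 probe sets (0.09, limma adjusted p = 0.251). The dimmer Fgfr3 probe set differed by 0.03. Fgfr4 averaged 6.34 in Ctr9 esiRNA arrays and 6.37 in luciferase esiRNA arrays (-0.03, 95% interval -0.24 to 0.18), and of its 5 probe sets a dim one fell by 0.26 (SE 0.080).

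The adaptors and kinases between receptor and ERK differed by -0.18 to 0.26 on their brightest probe sets. Of 8 measured, 2 were higher, 1 was lower and 5 did not pass (37.5% called, against 30.8% of all genes). Ptpn11, which encodes the phosphatase SHP2 needed for full RAS activation, read 10.07, 10.02, 10.06 and 10.11 in Ctr9 esiRNA arrays, against 9.72, 9.82, 9.87 and 9.80 in luciferase esiRNA arrays. These did not overlap, and the difference was 0.26 (SE 0.049, limma adjusted p = 0.00293), while its 2 dimmer probe sets did not pass (0.16 and 0.02). Gab1, a docking protein that brings SHP2 to the receptor, went the other way, with 11.25, 11.33, 11.29 and 11.36 in Ctr9 esiRNA arrays and 11.45, 11.52, 11.51 and 11.48 in luciferase esiRNA arrays. All 3 Gab1 probe sets fell, by 0.18 (SE 0.045), 0.15 (SE 0.044) and 0.17 (SE 0.054). The call on the brightest did not hold with luciferase arrays 1 and 2 (limma adjusted p = 0.0616) or 3 and 4 (0.0764) left out.

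Braf, a RAF kinase that phosphorylates MEK, showed a larger difference on its dimmer probe sets than on the brightest. The brightest read 8.90, 8.92, 9.0 and 9.06 in Ctr9 esiRNA arrays, against 8.71, 8.78, 8.87 and 8.78 in luciferase esiRNA arrays. The gap between the groups was narrow, at 0.19 (SE 0.055, limma adjusted p = 0.0299). That call was lost without Ctr9 esiRNA replicate 3 (0.0733) or 4 (0.0847), without luciferase replicate 1 (0.0796), 2 (0.0626) or 4 (0.0623) and with luciferase arrays 1 and 2 left out (0.178). In all, 7 of 9 Braf probe sets rose, by up to 0.53 (SE 0.061), and the 2 that did not pass were the dimmest. The mean over all Braf probe sets rose by 0.34 (limma adjusted p = 8.84e-05).

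Sos1, the exchange factor that loads RAS, depended on the probe set: the brightest read 8.66 in Ctr9 esiRNA arrays and 8.75 in luciferase esiRNA arrays and did not pass (-0.09, SE 0.050), while 2 of the 4 others rose, by 0.39 (SE 0.055) and 0.31 (SE 0.075). The mean over all 5 Sos1 probe sets rose by 0.16 (limma adjusted p = 0.0483). Nras, a RAS GTPase, did not pass on its brightest probe set (0.08, SE 0.046), and its next one rose by 0.29 (SE 0.047), as did the mean over its probe sets by 0.14 (limma adjusted p = 0.0108). The adaptor Grb2 had values that did not overlap, 9.98 ± 0.0261 in Ctr9 esiRNA arrays and 9.89 ± 0.0256 in luciferase esiRNA arrays (SD, n = 4 each), yet the difference of 0.09 did not pass (limma adjusted p = 0.159). For the MEK genes the 95% intervals of the difference ran from -0.17 to 0.03 for Map2k1 and from -0.12 to 0.07 for Map2k2.

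The feedback inhibitors gave 7 higher genes of 11 and none lower on their brightest probe sets, at a median log2 difference of 0.47. Dusp6, the cytoplasmic phosphatase of ERK, read 10.39, 10.33, 10.19 and 10.23 in Ctr9 esiRNA arrays, against 9.50, 9.51, 9.59 and 9.66 in luciferase esiRNA arrays. The groups were well apart, by 0.72 (SE 0.060, 1.65-fold, limma adjusted p = 1.74e-05). Il17rd, the membrane protein also called Sef that damps FGF signalling, read 10.26, 10.07, 10.14 and 10.11 in Ctr9 esiRNA arrays, against 9.34, 9.45, 9.49 and 9.52 in luciferase esiRNA arrays. This too was a gap without overlap, of 0.69 (SE 0.059, limma adjusted p = 1.98e-05), and the dimmer Il17rd probe set rose by 0.63 (SE 0.115). Dusp5, a nuclear phosphatase specific for ERK, read 7.88, 7.97, 7.68 and 7.75 in Ctr9 esiRNA arrays, against 7.30, 7.35, 7.07 and 7.26 in luciferase esiRNA arrays, a rise of 0.57 (SE 0.079, limma adjusted p = 0.000446).

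Spry1 and Spred1 rose as well. Spry1, a Sprouty protein that acts between receptor and RAF, averaged 8.95 ± 0.0478 in Ctr9 esiRNA arrays and 8.44 ± 0.0381 in luciferase esiRNA arrays (SD, n = 4 each; 0.51, SE 0.046). Spred1, which holds back RAS through neurofibromin, averaged 9.87 ± 0.0965 in Ctr9 esiRNA arrays and 9.34 ± 0.0901 in luciferase esiRNA arrays (SD, n = 4 each), and 6 of its 8 probe sets rose, by 0.20 to 0.54, while the 2 dimmest did not pass. Dusp1, a nuclear MAP kinase phosphatase of the early response, averaged 10.20 ± 0.0260 in Ctr9 esiRNA arrays and 9.73 ± 0.0999 in luciferase esiRNA arrays (SD, n = 4 each; 0.47, SE 0.056). Dusp14, a small phosphatase of MAP kinases, rose by 0.28 (SE 0.051).

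The other 4 feedback inhibitors did not pass on their brightest probe sets. Spry4 read 9.04, 8.66, 8.59 and 8.70 in Ctr9 esiRNA arrays, against 8.87, 8.90, 9.08 and 9.29 in luciferase esiRNA arrays. Ctr9 esiRNA replicate 1 alone reached into the luciferase range, and without it the difference passed (-0.39, limma adjusted p = 0.0230), where with all arrays it was -0.29 (SE 0.115, limma adjusted p = 0.0987). The dimmest of 4 Spry4 probe sets fell by 0.31 (SE 0.081). Spred2 differed by -0.11 (SE 0.053), and 1 of its 5 probe sets fell, by 0.33 (SE 0.079), as did the mean over them by 0.19 (limma adjusted p = 0.0110). Spry2 values did not overlap, with 9.93 ± 0.112 in Ctr9 esiRNA arrays and 9.77 ± 0.0331 in luciferase esiRNA arrays (SD, n = 4 each), but the difference of 0.15 did not pass (limma adjusted p = 0.0918). It passed when only probe sets above the median signal were tested (0.0395) and with a trended robust prior (0.0215). Dusp4, a nuclear ERK phosphatase, differed by 0.18 (95% interval 0.04 to 0.33, limma adjusted p = 0.0661) and passed in several alternatives. These were cyclic loess (limma adjusted p = 0.0431), both filters on dim probe sets (0.0286 and 0.0483), the trended robust prior (0.0281), the fit on means of probe sets (0.0399) and the fit without luciferase replicate 4 (0.24, limma adjusted p = 0.0152). Dusp4 has 1 probe set, so the filters, the prior and the means of probe sets left its values and its difference of 0.18 unchanged.

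**Figure D3:**
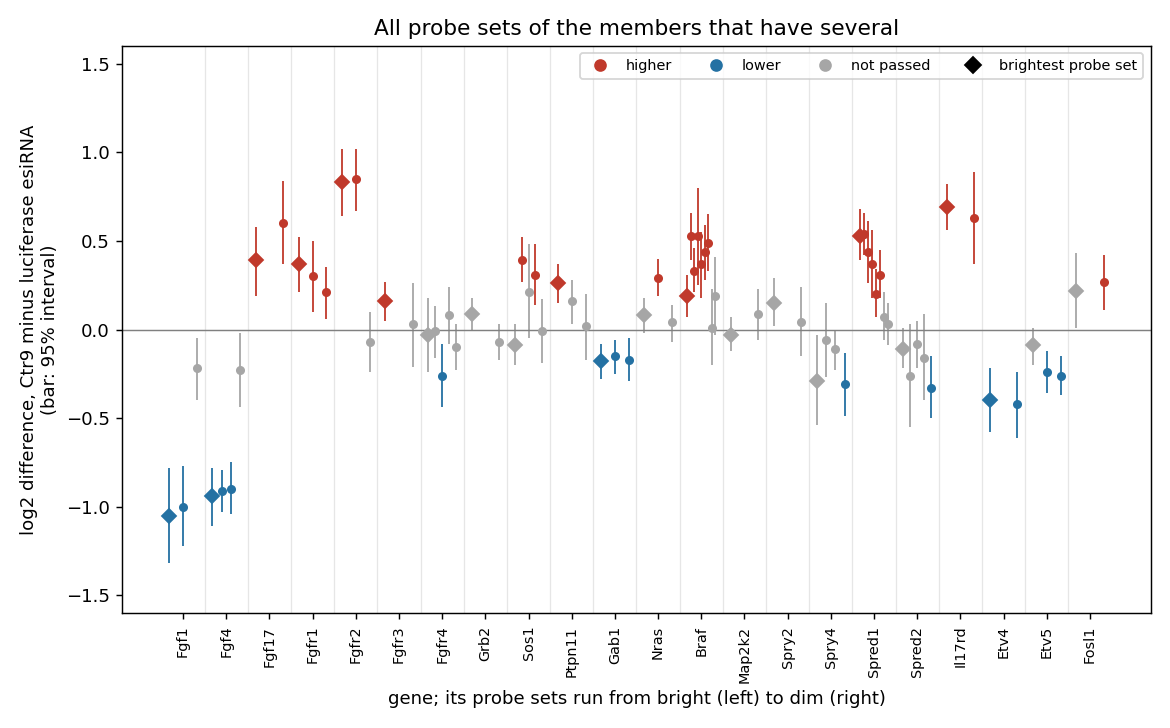
Log2 difference (y axis, Ctr9 minus luciferase esiRNA, with limma's 95% interval) of every probe set of the 22 members that have several, ordered within a gene from bright to dim. Red probe sets were higher, blue lower and grey did not pass; diamonds mark the brightest. No gene has both red and blue probe sets.

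In 0 of the 22 members read by more than 1 probe set did the calls conflict in sign. Of the 92 member probe sets, 37 were higher and 15 lower, where 11.8% of all 45037 probe sets were higher and 13.1% lower (24.9% in all). In 7 members the brightest probe set did not pass and another did. Higher were Sos1, Nras and Fosl1, and lower were Fgfr4, Spry4, Spred2 and Etv5. Probe sets of a gene share their RNA sample and are not replicates of it.

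The 7 measured transcriptional targets gave 2 higher genes, 1 lower and 4 that did not pass (42.9% called, against 30.8% of all genes). Phlda1, an early response gene that restrains growth factor signalling, read 8.20, 8.13, 8.17 and 8.26 in Ctr9 esiRNA arrays, against 7.48, 7.31, 7.27 and 7.19 in luciferase esiRNA arrays. The groups stood apart by 0.88 (SE 0.066, 1.84-fold, limma adjusted p = 8.27e-06). Fos, the early response gene whose protein joins Jun in AP-1, read 7.53, 7.52, 7.45 and 7.51 in Ctr9 esiRNA arrays, against 6.80, 6.95, 6.88 and 6.54 in luciferase esiRNA arrays. It rose by 0.71 (SE 0.081, limma adjusted p = 0.000127), with luciferase replicate 4 the lowest value.

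Etv4 and Etv5 encode ETS factors of the PEA3 group, which FGF induces in many embryonic tissues. Etv4 read 8.50, 8.52, 8.38 and 8.43 in Ctr9 esiRNA arrays, against 8.82, 8.66, 8.89 and 9.08 in luciferase esiRNA arrays. It thus moved opposite to Phlda1 and Fos, with no overlap and a difference of -0.40 (SE 0.082, limma adjusted p = 0.00497), and the second Etv4 probe set fell by 0.42 (SE 0.082). Etv5 did not pass on its brightest probe set, at 12.01 ± 0.0263 in Ctr9 esiRNA arrays and 12.10 ± 0.0527 in luciferase esiRNA arrays (SD, n = 4 each), while its 2 other probe sets fell by 0.24 (SE 0.055) and 0.26 (SE 0.048). The mean over all Etv5 probe sets fell by 0.20 (limma adjusted p = 0.00346).

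Egr1, a zinc finger gene of the immediate early response, read 8.49 ± 0.0815 in Ctr9 esiRNA arrays and 8.36 ± 0.108 in luciferase esiRNA arrays (SD, n = 4 each) and did not pass (0.13, 95% interval -0.01 to 0.28). Fosl1, a Fos relative, differed by 0.22 (SE 0.095) on its brightest probe set, and its other one rose by 0.27 (SE 0.070). Ier3, a stress-responsive early gene, had 8.27, 8.82, 8.65 and 8.64 in Ctr9 esiRNA arrays and 8.62, 8.45, 8.11 and 7.94 in luciferase esiRNA arrays. The Ier3 groups overlapped (0.32, SE 0.155), and of the alternatives run the gene passed in that without luciferase arrays 1 and 2 alone (0.57, limma adjusted p = 0.0261).

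A list of 94 other genes of the pathway, of which 87 were measured, had 31 higher and 12 lower genes and a median log2 difference of 0.11. Of those measured, 35.6% were higher and 13.8% lower, against 15.8% and 15.0% of all genes. These lists too were chosen with earlier results of these data known, so their shares are no independent test against all genes. Of 13 other feedback genes 7 were higher and 1 lower (61.5% called, against 30.8% of all genes), with a median of 0.27. Pea15a, which keeps ERK in the cytoplasm, averaged 8.65 ± 0.155 in Ctr9 esiRNA arrays and 7.09 ± 0.0728 in luciferase esiRNA arrays (SD, n = 4 each; 1.56, SE 0.077). Dusp10, a phosphatase that prefers p38 and JNK, rose by 0.95 (SE 0.069), and Errfi1, an inhibitor of the EGF receptor, by 0.73 (SE 0.048).

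Among 17 other ERK-responsive genes, 8 were higher and 3 lower (64.7% called, against 30.8% of all genes). Jun, the partner of Fos, averaged 8.63 ± 0.0669 in Ctr9 esiRNA arrays and 7.26 ± 0.0588 in luciferase esiRNA arrays (SD, n = 4 each; 1.38, SE 0.052), and Plaur, the urokinase receptor, rose by 1.21 (SE 0.088). The lowest difference among these ERK-responsive genes was -0.55. Of 20 other adaptors, RAS proteins and kinases, 5 were higher and 4 lower (45.0% called, against 30.8% of all genes). Gab2, the relative of Gab1, rose by 0.94 (SE 0.058) and Shoc2, a scaffold that helps activate RAF, by 0.40 (SE 0.052). The RAS relative Mras fell by 1.22 (SE 0.048), a fit on 3 of the 4 Ctr9 esiRNA values since 1 is empty.

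Heparan sulphate genes, which shape how FGFs reach their receptors, had 7 higher and 4 lower of 16 (68.8% called, against 30.8% of all genes). Hs6st2, a 6-O-sulphotransferase, averaged 8.36 ± 0.0301 in Ctr9 esiRNA arrays and 6.58 ± 0.179 in luciferase esiRNA arrays (SD, n = 4 each; 1.78, SE 0.081). Sulf1, which removes such sulphates, rose by 1.08 (SE 0.060) and the proteoglycan gene Gpc1 by 0.68 (SE 0.066). The 4 lower genes were Sulf2 (-0.37, SE 0.045), a relative of Sulf1, and Sdc4 (-0.35, SE 0.071), Glce (-0.25, SE 0.055) and Ext2 (-0.18, SE 0.052). Sulf2 was bright, at 11.53 in Ctr9 esiRNA arrays and 11.90 in luciferase esiRNA arrays, and had the lowest difference of the heparan sulphate genes. Of 15 other FGF genes 3 were higher and none lower: Fgf5, a ligand of the primed epiblast (2.57, SE 0.102, with luciferase values of 4.61 to 4.91 in the compressed low range), Fgf13, an intracellular FGF homologue (0.67, SE 0.056), and Fgf12, dim at 4.07 in Ctr9 esiRNA arrays and 3.85 in luciferase esiRNA arrays. The Fgf12 call (limma adjusted p = 0.0475) was lost without any single array but Ctr9 esiRNA replicate 4 (0.0620 to 0.109), and with luciferase arrays 1 and 2 (0.21, limma adjusted p = 0.179) or 3 and 4 (0.23, limma adjusted p = 0.147) left out. It was also lost with array weights (0.0543), with the trended robust prior (0.0599) and with the mean of all Fgf12 probe sets (0.05, limma adjusted p = 0.449). Of 6 other receptors and co-receptors 1 was higher and none lower (16.7% called, against 30.8% of all genes). It was Flrt3, a membrane protein that promotes FGF signalling in frog embryos, which rose by 0.35 (SE 0.077). That call was lost with luciferase arrays 3 and 4 left out (0.27, limma adjusted p = 0.0813).

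**Figure D4:**
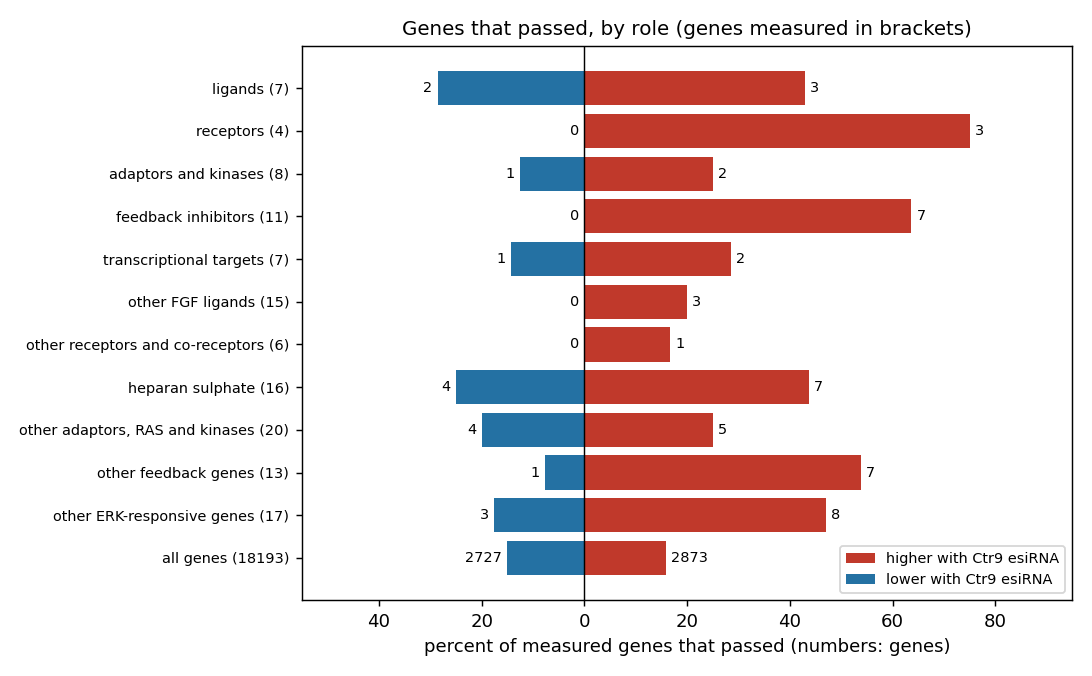
Percent of measured genes (x axis) that were lower (left of 0) or higher (right of 0) with Ctr9 esiRNA, for each role of the members, for 6 lists of other pathway genes and for all genes, with the number of genes at each bar end and the number measured in brackets. Among the members' roles, feedback inhibitors and receptors have bars to the right alone, and the bars of all genes (15.8% higher, 15.0% lower) are nearly even. The lists were chosen with earlier results of these data known.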

How the data were processed

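The deposited values are log2 signals per probe set. GCOS 1.4 and RMA are named in the submitters' processing notes, without settings. RMA makes array distributions alike and compresses low signals, which hides any shift shared by all genes. No further scaling was applied to the deposited log2 values. Of 45101 probe sets, 64 controls were left out and 45037 tested. Symbols come from the platform annotation, brought up to date by Entrez identifier from RefSeq's gene table (GRCm38.p6).

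Groups were compared with limma 3.58.1 in R 4.3.3 (lmFit, eBayes), with Benjamini-Hochberg adjustment over all 45037 probe sets and a threshold of 0.05. SE and 95% intervals are limma's moderated ones. The fit was tested on simulated arrays with known changes in a small part of the probe sets. It found 98% of log2 changes of 1.0, 66% of 0.5, 32% of 0.3 and 10% of 0.2. Of its 107 calls, 4 were false. Small changes can thus be missed. Far more probe sets passed in the deposited data, so these shares need not hold there. All members may be named, with array values for the 3 largest differences per role, and up to 3 genes of each other list by smallest adjusted p. The lower heparan sulphate and ERK-responsive genes were named in addition, after their values were seen. They were not followed through the alternatives. Members and lists were chosen with earlier results of these data known. Same-numbered replicates did not deviate together (correlations -0.078 to 0.063, against -0.084 to 0.095 for differently numbered ones). The labels do not say whether the numbers pair samples, so the replicate number entered an alternative alone. Alternatives were other scalings, filters, priors, weights, probe set means, a stricter threshold and arrays left out. Figures used matplotlib 3.10.9.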

Additional observations from a re-analysis of the deposited data

Results flagged for a closer look

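Groups of 4 values were tested for the members, for Ctr9 and for the other pathway genes named by smallest adjusted p. Dixon's 95% critical value is a bar that chance alone trips in about 1 of 20 groups. Among these 107 groups, 1 held a value standing apart from the other 3 by more than that critical value. It was Dusp1 in the Ctr9 esiRNA arrays, where replicate 1 at 10.16 lay below the other 3, which reached 10.22 (ratio of gap to range 0.840). The whole range is small beside the Dusp1 difference of 0.47 between groups.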

How the results depend on the processing

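Over 21 alternatives, 16 of the 21 called members kept direction and call in every one that gave them a value, apart from the stricter threshold, and 5 (Fgf15, Fgf17, Fgfr3, Gab1 and Braf) lost the call in at least 1 while none reversed. Members called higher numbered 14 to 20 and members called lower 3 to 6; with 1 array left out they were 15 to 16 and 4 to 5. Other pathway genes were 23 to 34 higher and 8 to 16 lower. At an adjusted p under 0.01, 7000 probe sets of the whole table passed in place of 11209. With the replicate block, 17 members were higher and 4 lower, and 9771 probe sets passed; Fgfr3 lost its call (0.0751) and Fgf10 gained it (0.0225). For Ctr9, the other probe sets from bright to dim gave -0.15, -0.18, 0.29 and 0.27, and the mean of all 0.03. Signs turned for members near 0 that did not pass: Fgfr4 (-0.07 to 0.06 with 1 array left out, above 0 without Ctr9 esiRNA replicate 4 or luciferase replicate 3 (0.02), and 0.01 without luciferase arrays 3 and 4), Fgf2 (-0.08 to 0.01 with 1 array left out), and, with the mean of all probe sets, Map2k2 (0.03). Sos1 also turned with that mean, and there it passed as higher (0.16, limma adjusted p = 0.0483). The causes were not tested. Fgf2, Fgf10 and Fosl1 lie below the median signal, which limits their differences.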

Other observations

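In the deposited table, probe sets with an empty value carry an unusually tight group. Of 456 such probe sets, 455 had the 3 values left in that group closer together than the 4 values of the other group, with a median SD of 0.00322 against 0.0870, and in 437 that SD was under 0.01. Groups without an empty value had an SD under 0.01 in 0.396% of cases. No member's brightest probe set has an empty value, but 2 of the other pathway genes do. Mras reads 7.49 in all 3 Ctr9 esiRNA values left (SD 0.00119), against 8.71 ± 0.0396 in luciferase esiRNA arrays, and Junb, named because of this pattern, reads 8.55, 8.55 and 8.56 in the Ctr9 esiRNA arrays left, against 8.35, 8.29, 8.07 and 8.0 in luciferase esiRNA arrays. The limma SE of these genes rests on that spread, and no label says how the empty values arose.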
